A study of Mus musculus with 8 samples.

Results

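The 9 genes described here, which blood flow is known to control in vessel walls, were followed in mouse blood precursors in which the transcription factor SOX7 was switched on. They were the Krüppel-like factors Klf2, Klf4 and Klf6, the vessel wall effectors Nos3, Thbd and Edn1, and the signalling genes S1pr1, Rhob and Sgk1. A member was a probe set whose platform annotation named exactly 1 gene symbol and that symbol was on the list, and where a gene had several it was to be selected on the highest mean level over the arrays. All 9 listed genes were found, among 14683 named genes, each with 1 probe set, so the mean level decided nothing. The list itself was chosen with earlier results of these arrays known, so its counts are a description and no independent evidence. Their mean log2 levels over the 8 arrays lay between 6.01 for Edn1 and 9.47 for S1pr1, which describes the choice and compares no gene with another.

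The cells were CD41+/CD34- haematopoietic precursors of the iSOX7 line, a derivative of the mouse embryonic stem cell line Ainv18 in which doxycycline induces SOX7, so all groups carried the inducible gene. They were made from FLK1+ cells of embryoid bodies at day 3 by 3 days of liquid blast culture on gelatin, in medium with 10% FCS, VEGF at 5 ng/ml and IL6 at 10 ng/ml, and were sorted before the treatment. Each of the 4 groups held 2 arrays: without and with doxycycline for 12 h, and without and with doxycycline for 24 h. Doxycycline-treated cells without the transgene were not analysed here, and the protocols name no flow over the cells. A single line was used, and nothing in the labels says that replicates came from separate cultures, so p-values reflect no more than the variation among these arrays, part or all of which may be technical.

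In endothelium, laminar flow is sensed by a junctional complex and by ion channels, and the kinases MEK5 and ERK5 with MEF2 factors then raise KLF2 and KLF4. These zinc finger factors are known to raise the nitric oxide synthase gene Nos3 and the anticoagulant receptor gene Thbd and to lower Edn1, which encodes the vasoconstrictor endothelin 1. S1PR1, a receptor for a blood-borne lipid, RHOB, a small GTPase of endosomes, and SGK1, a kinase induced by serum and glucocorticoids, also respond to flow or to factors in blood.

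Sox7 itself read 6.82 to 7.17 on the 4 arrays without doxycycline and 10.57 to 10.96 on the 4 with it, on the log2 scale of the arrays. Replicate 2 of the untreated cells at 24 h differed from the rest, since its upper quartile was 8.19, and those of the other 7 arrays were 8.38 to 8.57. Of the markers of the sort, Itga2b, which encodes CD41, read 9.27 to 10.89 on the 8 arrays. Cd34 read 9.18 to 10.78, although the cells had been sorted as lacking CD34 before the culture. Smooth muscle and mesenchyme markers (11 measured) had a list mean of 6.20 to 6.45 in replicate 1 and 7.33 to 7.53 in replicate 2. Endothelial markers (12 measured) had a list mean of 8.54 and 7.68 without and 9.33 and 8.91 with doxycycline at 12 h, and of 8.38 and 7.29 without and 9.42 and 9.01 with it at 24 h, each given as replicate 1 and replicate 2.

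After 12 h all 9 genes lay higher with doxycycline than without it. After 24 h Thbd, S1pr1 and Nos3 still lay apart by 0.74 to 1.09, while Klf2, Klf4, Edn1 and Rhob lay between -0.06 and 0.04. At 12 h the arrays of the groups did not overlap for 9 of 9 members, against 21.7% of all probe sets higher in this way. Only Edn1 passed in limma at an adjusted p under 0.05 over all 16348 probe sets, which 0.593% of probe sets did in the upward direction. Once the replicate number entered the fit as a block there were 5 that passed, Edn1, Thbd, S1pr1, Sgk1 and Rhob, against 1.72% of probe sets. At 24 h the groups did not overlap, with doxycycline higher, for 6 of 9 (15.2% of probe sets), and 0 members passed in limma, against 0.887% of probe sets upward. Beside Thbd, S1pr1 and Nos3, these 6 held Edn1, Klf6 and Sgk1, which differed by only 0.04, 0.21 and 0.29. At an unadjusted p under 0.05 there were 6 members at 12 h and 3 at 24 h, beside 8.85% and 11.4% of all probe sets. With the block 2 passed at 24 h, Thbd and S1pr1, against 2.39% of probe sets. Over both times together 2 rose, again Thbd and S1pr1, against 2.61% of probe sets, or 4.28% with the block. These 2 were also the members whose 4 arrays with doxycycline all lay above the 4 without, as for 5.43% of probe sets. The member medians were 0.74 at 12 h and 0.21 at 24 h, beside 0.00 and -0.01 over all probe sets.

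**Figure D1:**
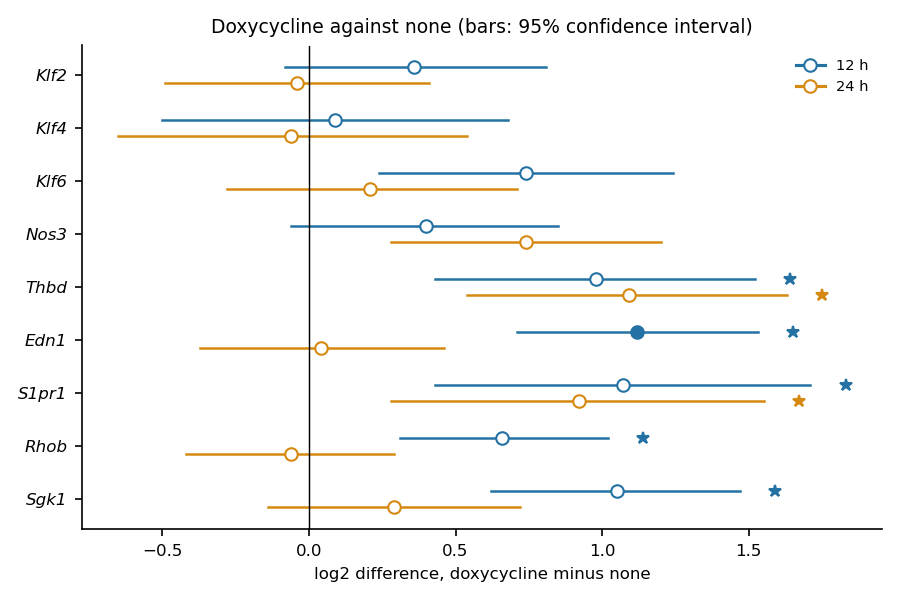
Log2 difference between doxycycline and none for each gene at 12 h (blue) and 24 h (orange), with 95% confidence intervals from limma over 2 arrays per group. Filled circles passed at an adjusted p under 0.05 and a star marks genes that passed with the replicate block; Edn1 at 12 h is the only filled circle, and Thbd and S1pr1 carry stars at both times.

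Of the factors none passed at either time, and Klf6 had the largest difference, at 12 h. Klf2, the flow-induced factor that keeps endothelium quiescent, read 7.54 and 7.75 without and 7.78 and 8.24 with doxycycline at 12 h, and 7.54 and 7.55 without and 7.63 and 7.38 with it at 24 h. Its groups lay just apart at 12 h and overlapped at 24 h. The differences were 0.36 ± 0.19 (SE; 95% confidence interval -0.08 to 0.81, adjusted p = 0.703) and -0.04 ± 0.19 (-0.49 to 0.41, adjusted p = 0.992).

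Klf4, which shares many targets with Klf2 and is also a pluripotency factor, read 6.5 and 6.53 without and 6.58 and 6.63 with doxycycline at 12 h. At 24 h it read 6.11 and 6.84 without and 6.20 and 6.64 with it, so that replicate 2 was the higher array in both groups and the groups overlapped. Its differences were 0.09 ± 0.25 (-0.50 to 0.68) and -0.06 ± 0.25 (-0.65 to 0.54), neither of which passed (adjusted p = 0.995 and 0.992). Klf6, an early-response factor of injured vessels and of haematopoietic development, read 8.69 and 9.22 without and 9.53 and 9.86 with doxycycline at 12 h, and 9.0 and 8.74 without and 9.10 and 9.07 with it at 24 h. The groups were apart at both times. The difference of 0.74 ± 0.21 at 12 h (1.67-fold) and of 0.21 ± 0.21 at 24 h did not pass (adjusted p = 0.247 and 0.867), also with the block (adjusted p = 0.138 and 0.716).

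The promoters of Klf2 and Klf4 are shown because the MEF2 route is known to act on them. They are the 250 bases before the RefSeq start in GRCm38.p6, 5′ to 3′ on the strand of the gene, with capitals at matches to 4 motifs searched on both strands: MEF2 as CTANNNNTAG, SOX as ACAAT, ETS as GGAAG and KLF as GGGTGG. The Klf2 window lies at chr8:72318812-72319061 on the + strand and the Klf4 window at chr4:55532476-55532725 on the - strand.
Klf2: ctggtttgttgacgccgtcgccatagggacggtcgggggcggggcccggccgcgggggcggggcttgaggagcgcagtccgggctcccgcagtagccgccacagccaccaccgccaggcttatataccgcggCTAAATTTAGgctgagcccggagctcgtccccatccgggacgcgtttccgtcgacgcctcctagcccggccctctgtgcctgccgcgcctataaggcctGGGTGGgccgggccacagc
Klf4: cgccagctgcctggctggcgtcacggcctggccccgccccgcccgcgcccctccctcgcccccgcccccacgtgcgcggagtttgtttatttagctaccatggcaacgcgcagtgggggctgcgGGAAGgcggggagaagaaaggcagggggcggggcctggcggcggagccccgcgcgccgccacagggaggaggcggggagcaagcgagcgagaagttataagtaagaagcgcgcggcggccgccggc
In Klf2 the MEF2 letters stood at -118 to -109 from the start and the KLF letters at -19 to -14. In Klf4 the ETS letters stood at -126 to -122. Over all 32851 windows of 250 bases before and 50 after a start, 3.69% held the MEF2 letters, 31.0% the SOX letters, 71.4% the ETS letters and 31.5% the KLF letters, and matches of different motifs did not overlap in the windows printed here.

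Among the vessel wall effectors, Thbd rose with doxycycline over both times and Edn1 at 12 h, and Nos3 did not pass. Thbd encodes thrombomodulin, which turns thrombin into an activator of the anticoagulant protein C. It read 7.02 and 6.89 without and 8.19 and 7.67 with doxycycline at 12 h, and 6.81 and 6.27 without and 7.68 and 7.57 with it at 24 h. Every array with doxycycline lay above every array without it. Thbd rose by 1.03 ± 0.16 over both times (2.04-fold, 4 arrays against 4, adjusted p = 0.00896), and by 0.91 without the untreated 24 h array that differed from the rest (adjusted p = 0.0197). The differences at single times were 0.98 ± 0.23 and 1.09 ± 0.23 (adjusted p = 0.149 and 0.0849), and they passed with the block (adjusted p = 0.027 and 0.0152). That at 24 h also passed when quantile normalization was repeated (adjusted p = 0.0478) or the dimmest probe sets were left out (adjusted p = 0.0479). The endothelial list mean given above was likewise higher with doxycycline in both replicates at both times, and its part in this result was not tested. In such bulk RNA, more cells of a type and more RNA per cell cannot be told apart.

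Nos3, the endothelial nitric oxide synthase, read 5.78 and 5.95 without and 6.09 and 6.43 with doxycycline at 12 h, and 6.41 and 6.14 without and 7.20 and 6.83 with it at 24 h. The groups were apart at each time, but the 24 h level without doxycycline overlapped the 12 h level with it. The differences of 0.40 ± 0.20 and 0.74 ± 0.20 (1.67-fold at 24 h) did not pass (adjusted p = 0.675 and 0.155), nor did 0.57 ± 0.14 over both times (adjusted p = 0.0687; 0.0594 with the block). It passed over both times when quantile normalization was repeated (0.54, adjusted p = 0.0461) or the dimmest 33.3% of probe sets were left out (0.57, adjusted p = 0.0406).

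Edn1 read 6.67 and 6.31 without and 7.44 and 7.78 with doxycycline at 12 h, and 4.96 and 4.94 without and 5.00 and 4.99 with it at 24 h. All 4 arrays at 24 h lay far below all 4 at 12 h, in a narrow band. No background level is known for these arrays, so the 24 h level may or may not be above background. At 12 h Edn1 rose by 1.12 ± 0.18 with doxycycline (2.17-fold, adjusted p = 0.0398; 0.0238 with the block). The call was lost when any 1 of the 8 arrays was left out (adjusted p from 0.0583 to 0.295) and when only the 4 arrays at 12 h were fitted (adjusted p = 0.145), while the difference stayed between 0.94 and 1.30. At 24 h the difference was 0.04 ± 0.18 (-0.37 to 0.46, adjusted p = 0.988).

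The Edn1 promoter is shown because it held the SOX letters most often among the member windows. It lies at chr13:42301226-42301475 on the + strand, with the same capitals.
Edn1: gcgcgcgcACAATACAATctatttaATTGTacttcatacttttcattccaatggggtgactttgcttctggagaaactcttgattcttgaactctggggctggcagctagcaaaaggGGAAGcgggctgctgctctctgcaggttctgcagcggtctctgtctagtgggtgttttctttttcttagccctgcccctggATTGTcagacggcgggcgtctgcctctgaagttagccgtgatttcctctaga
It held 4 SOX matches, at -242 to -238, -237 to -233, -225 to -221 and -52 to -48, the last 2 on the other strand, and 1 ETS match at -133 to -129. Of all windows, 0.432% held at least 4 SOX matches. The window was picked for its matches and the limit of 4 was its own count, so this share is a description and no evidence. A match is a string of letters and no measured binding site.

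Among the signalling genes, S1pr1 rose with doxycycline over both times, and Rhob and Sgk1 passed at 12 h with the block. S1pr1, the sphingosine 1-phosphate receptor that steadies endothelial junctions and guides blood cells out of tissues, read 9.31 and 8.77 without and 10.18 and 10.04 with doxycycline at 12 h, and 9.28 and 8.55 without and 9.93 and 9.73 with it at 24 h. Without doxycycline replicate 2 was the lower array at each time, as in the endothelial list mean, whose part here was not tested, and every array with doxycycline lay above every array without it. S1pr1 rose by 0.99 ± 0.18 over both times (1.99-fold, adjusted p = 0.0199; 0.00299 with the block). The call was lost without replicate 2 of the untreated 12 h cells, either array with doxycycline at 12 h or replicate 1 with it at 24 h (adjusted p from 0.0581 to 0.0727). At 12 h the difference was 1.07 ± 0.27 and at 24 h 0.92 ± 0.27 (adjusted p = 0.182 and 0.209), and both passed with the block (adjusted p = 0.0267 and 0.0359). Without the untreated 24 h array that differed from the rest the 24 h difference was 0.55 ± 0.24.

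Rhob, a short-lived endosomal GTPase whose transcript is quickly induced by stress, read 9.06 and 9.20 without and 9.64 and 9.95 with doxycycline at 12 h, and 8.53 and 8.60 without and 8.47 and 8.53 with it at 24 h. With doxycycline it was the higher group at 12 h, and the groups touched at 24 h. The difference was 0.66 ± 0.15 at 12 h (1.59-fold, adjusted p = 0.128; 0.0455 with the block) and -0.06 ± 0.15 at 24 h (-0.42 to 0.29, adjusted p = 0.971).

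Sgk1, which regulates ion channels and FOXO factors, read 7.43 and 7.07 without and 8.29 and 8.30 with doxycycline at 12 h, and 6.40 and 6.18 without and 6.42 and 6.74 with it at 24 h. The groups were far apart at 12 h and just apart at 24 h. The difference was 1.05 ± 0.18 at 12 h (2.06-fold, adjusted p = 0.0568; 0.0332 with the block) and 0.29 ± 0.18 at 24 h (-0.14 to 0.72, adjusted p = 0.698). At 12 h it also passed after quantile normalization, median centring, an intensity trend, the filter on dim probe sets or array weights (adjusted p = 0.0374, 0.0471, 0.0497, 0.0299 and 0.0182). With array weights Thbd, S1pr1 and Rhob passed at 12 h as well (adjusted p = 0.0424, 0.0419 and 0.0441).

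The Rhob promoter is shown for comparison with that of Edn1, whose levels it followed. It lies at chr12:8500010-8500259 on the - strand, with the same capitals.
Rhob: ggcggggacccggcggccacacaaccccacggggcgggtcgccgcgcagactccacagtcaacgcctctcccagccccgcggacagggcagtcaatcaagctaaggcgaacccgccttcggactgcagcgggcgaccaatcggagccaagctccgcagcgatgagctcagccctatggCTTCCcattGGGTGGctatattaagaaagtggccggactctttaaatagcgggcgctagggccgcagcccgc
It held ETS letters on the other strand at -72 to -68 and KLF letters at -63 to -58, and 0 SOX matches. RefSeq lists 6 starts for Sgk1, and 3 of those windows held SOX letters. Windows were found for 6 of the 9 members, and none for Nos3, Thbd and S1pr1.

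**Figure D2:**
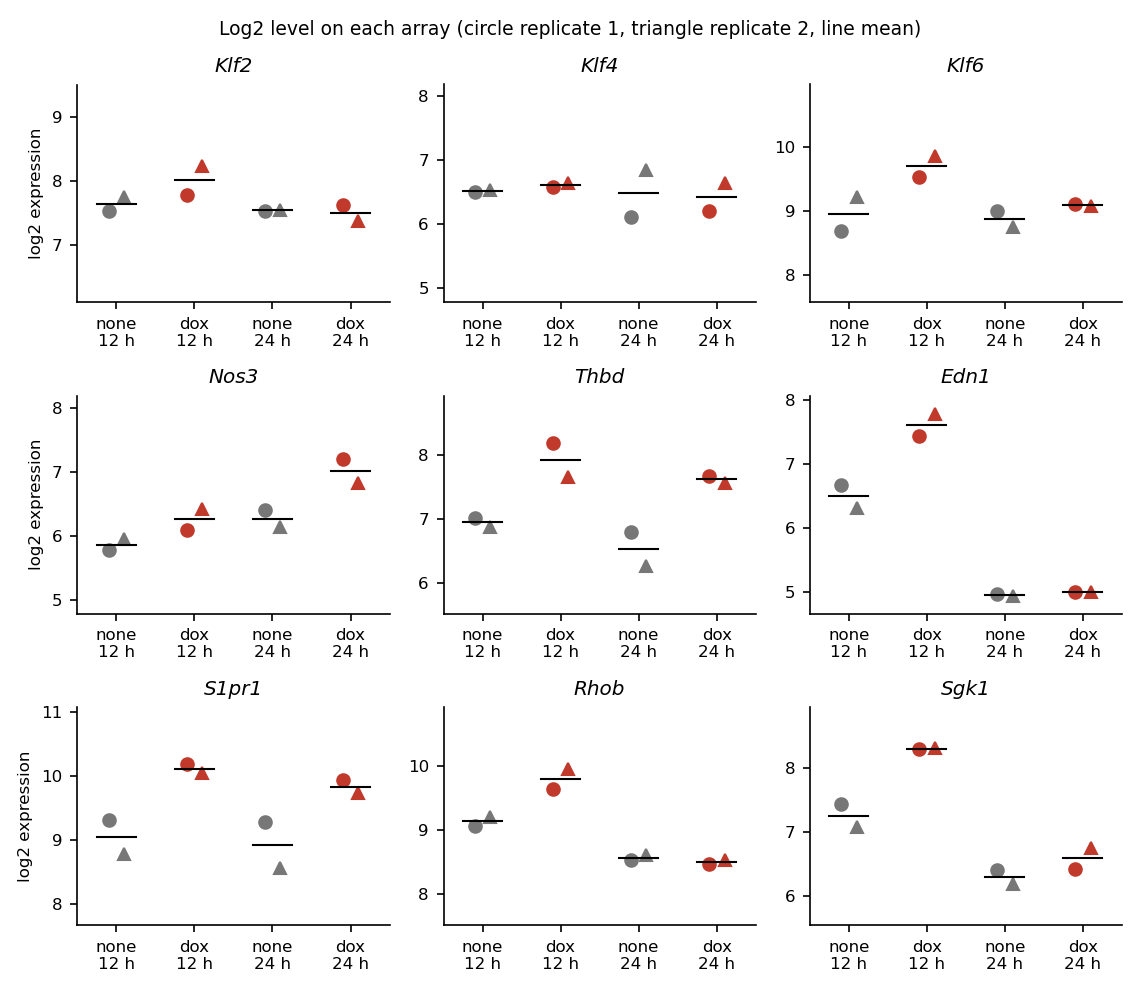
Log2 level of each gene on each of the 8 arrays, without (grey) and with doxycycline (red) at 12 h and 24 h; circles are replicate 1, triangles replicate 2 and lines group means. Each panel spans the same log2 range around its own middle, so Edn1 can be seen to drop to between 4.94 and 5.00 at 24 h while Thbd and S1pr1 keep their separation.

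The effect of doxycycline was 1.07 ± 0.25 lower at 24 h than at 12 h for Edn1, 0.76 ± 0.26 lower for Sgk1 and 0.73 ± 0.22 lower for Rhob, at unadjusted p = 0.00314, 0.0213 and 0.0106. None of the 9 members and 0 of all 16348 probe sets (0%) passed this test of the difference in limma, also with the block. At an unadjusted p under 0.05 these were 3 members, beside 505 of all probe sets (3.09%). For Thbd and S1pr1 the effects at the 2 times differed by 0.11 ± 0.33 and -0.15 ± 0.39 (95% confidence intervals -0.66 to 0.88 and -1.06 to 0.75), and for Nos3 by 0.34 ± 0.28 (-0.31 to 1.00). A difference of the doxycycline effect between the times was thus not shown by this test. For Edn1 the 24 h arrays read 4.94 to 5.00, and if this is background a doxycycline effect could not be seen there.

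Between 12 h and 24 h of culture Edn1 fell in both arms. Without doxycycline it fell by 1.54 ± 0.18 (2.91-fold lower, adjusted p = 0.0295), and it was the only one of 16348 probe sets to pass downward (0.00612%), while 23 passed upward (0.141%). With the block it was again the 1 member to pass downward, as 0.128% of probe sets did. With doxycycline it fell by 2.61 ± 0.18 (6.13-fold lower, adjusted p = 0.00482). Its 24 h values lay below 5.22, the mean level over the arrays under which the dimmest 33.3% of probe sets fell, so where they are at background these folds are lower bounds. Sgk1 and Rhob also fell with doxycycline, by 1.71 ± 0.18 (3.28-fold lower, adjusted p = 0.023) and by 1.29 ± 0.15 (2.45-fold lower, adjusted p = 0.0309). These 3 members were among 4 probe sets that passed downward with doxycycline (0.0245%), and the same 3 passed with the block, against 0.153% of probe sets. The other was Glul, glutamine synthetase, named after its values were seen, with a difference of -1.18 (adjusted p = 0.04).

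Without doxycycline the differences of Sgk1 and Rhob over this time were -0.96 ± 0.18 and -0.57 ± 0.15, with groups that did not overlap (adjusted p = 0.15 and 0.347). Such groups were seen downward in 14.3% of all probe sets without doxycycline and for 4 of the members, Thbd being the other beside Edn1. With doxycycline they were seen for 6 members against 20.5% of probe sets, with Klf2 at -0.50 ± 0.19 and Klf6 at -0.61 ± 0.21 among them (adjusted p = 0.657 and 0.607). Nos3 went the other way, by 0.41 ± 0.20 without and 0.75 ± 0.20 with doxycycline (adjusted p = 0.723 and 0.383). Klf4 and Thbd differed by -0.18 ± 0.25 and -0.30 ± 0.23 with doxycycline (adjusted p = 0.999 and 0.977).

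The calls of these falls depended on the number of arrays, while their sizes moved less. Without single arrays Edn1 differed by -1.72 to -1.36 without and -2.79 to -2.45 with doxycycline, Sgk1 with it by -1.87 to -1.55 and Rhob by -1.45 to -1.14. The call of Edn1 without doxycycline was lost in 6 of the 8 fits that left out 1 array (adjusted p from 0.0887 to 0.204). With doxycycline Edn1 was lost without replicate 2 at 12 h or replicate 1 at 24 h of the treated groups (adjusted p = 0.0554 and 0.0997), Sgk1 in 6 fits (adjusted p from 0.0598 to 0.22) and Rhob in 8 (adjusted p from 0.0633 to 0.301). When only the groups compared were fitted, all of these calls were lost (adjusted p = 0.139 for Edn1 without doxycycline, and 0.0509 for Edn1, 0.0822 for Sgk1 and 0.132 for Rhob with it). That of Rhob was also lost when quantile normalization was repeated (-1.32, adjusted p = 0.0709), and that of Edn1 without doxycycline with array weights (adjusted p = 0.255). The myeloid markers (8 measured) also moved with time, from list means of 5.77 and 5.58 at 12 h to 7.22 and 6.57 at 24 h without doxycycline and from 5.48 and 5.24 to 6.04 and 5.96 with it, and their part in these falls was not tested.

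**Figure D3:**
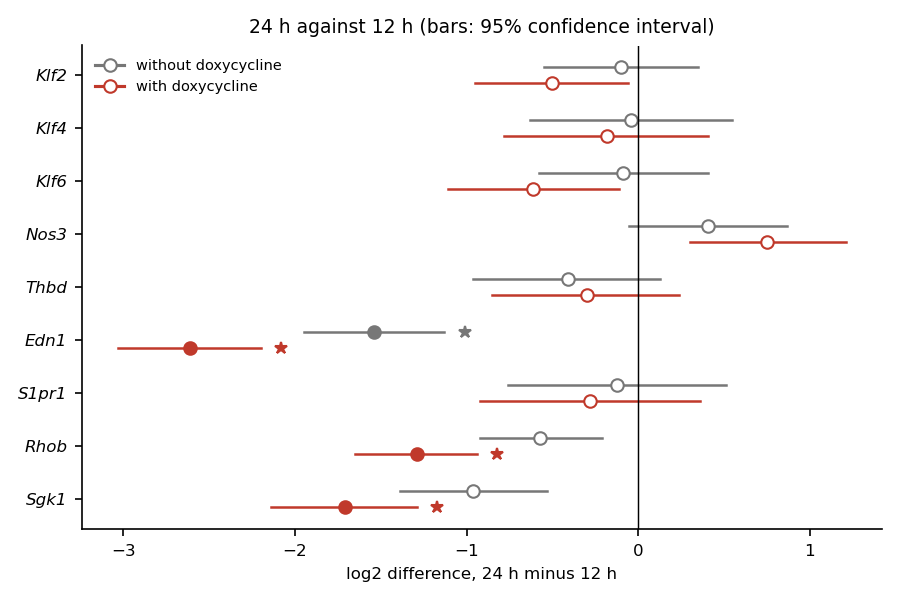
Log2 difference between 24 h and 12 h for each gene without (grey) and with doxycycline (red), with 95% confidence intervals from limma over 2 arrays per group. Filled circles passed at an adjusted p under 0.05 and stars mark genes that passed with the replicate block; Edn1 passed in both arms and Rhob and Sgk1 with doxycycline, while Nos3 lies to the right of 0.

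As a description over the 8 arrays, which share 4 groups and 1 line, the 2 non-member genes most like each member by Pearson correlation of the log2 level were looked up among 2833 genes with a range of at least 1. S1pr1 was most like Dcbld1 (r = 0.997) and Fli1, an ETS factor of blood and endothelium (r = 0.993). Thbd was most like Man2a1 (r = 0.984) and Sgpp1, a sphingosine 1-phosphate phosphatase (r = 0.972). Edn1 and Rhob shared Rpp25, a subunit of the RNase P complex (r = 0.943 and 0.968), which read 7.46 to 8.55 on the 12 h arrays and 6.79 to 6.90 on those at 24 h. Their next were Akr1b8 (r = 0.921) and the actin-bundling gene Pls3 (r = 0.961). Sgk1 was most like Vps36 (r = 0.944) and Id3, an inhibitor of basic helix-loop-helix factors (r = 0.936), and Nos3 like the protease gene Adamts4 (r = 0.982) and the collagen-modifying enzyme gene Plod2 (r = 0.953). Klf6 was most like Crybg1 (r = 0.979) and Cttnbp2nl (r = 0.967), and Klf2 like the lymphatic factor Prox1 (r = 0.931) and Akr1cl (r = 0.922). Klf4, which varied mostly with the replicate number at 24 h, was most like Marchf11 (r = 0.956) and Olfr1262 (r = 0.921). Akr1cl, at 3.38 to 4.68, and Olfr1262, at 2.49 to 3.63, lay below the 5.22 limit of the dimmest probe sets.

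Of 17 measured genes that sense flow or lead to Klf2 and Klf4, 1 rose at 12 h, the MEK5-ERK5 pathway kinase gene Map3k3, by 1.36 ± 0.22 (adjusted p = 0.0443), and 0 passed at 24 h, where 8 had an unadjusted p under 0.05 (11.4% of all probe sets). In limma without the block, 0.593% of all probe sets rose at 12 h. With the block 4 passed at 12 h and 6 at 24 h, against 1.72% and 2.39% of all probe sets higher, and 0 were lower. Over both times together 6 rose in limma, against 2.61% of all probe sets, and 6 with the block, against 4.28%. The endothelial cadherin Cdh5 differed by 1.55 ± 0.38 and 2.02 ± 0.38 (adjusted p = 0.0223 and 0.00795 with the block), the VEGF receptor Kdr by 0.97 ± 0.39 and 1.78 ± 0.39 (0.117 and 0.0137), and Hdac7, an endothelial repressor of MEF2, by 0.82 ± 0.16 and 0.86 ± 0.16 (0.0385 and 0.0253). Of the MEK5, ERK5 and MEF2 genes themselves, Map2k5 differed by -0.10 and 0.22 and Mapk7 by 0.25 and 0.30. Mef2a differed by 0.08 and 0.05 and Mef2c by -0.57 and 0.11. Mef2d differed by -0.45 and -0.36, but it read only 1.55 to 2.87 on the 8 arrays, below the 5.22 limit of the dimmest probe sets. None of these genes passed. The median of the 17 genes was 0.25 at 12 h and 0.33 at 24 h, beside 0.00 and -0.01 over all probe sets. Pecam1, Cdh5 and Kdr also stand among the endothelial markers.

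Of 12 other measured KLF genes, Klf1, the erythroid member of the family, fell by 1.18 ± 0.18 and 1.02 ± 0.18 (adjusted p = 0.0361 and 0.0429) and 0 rose. Klf5 differed by 0.69 ± 0.20 at 12 h (adjusted p = 0.247) and Klf15 by 0.66 ± 0.21 at 24 h (adjusted p = 0.247). The erythroid markers (8 measured) had list means of 11.40 and 11.14 without and 10.56 and 10.31 with doxycycline at 12 h, and 4 of them fell, and their part in the value of Klf1, which stands among them, was not tested.

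Of 13 nitric oxide genes beside Nos3, 0 passed at 12 h and 1 rose at 24 h, Ddah2, which breaks down inhibitors of the synthase, by 1.56 ± 0.26 (adjusted p = 0.0377). Cav1, a caveola protein that binds the synthase, read 7.20 and 6.02 without and 8.48 and 7.57 with doxycycline at 24 h, a difference of 1.41 ± 0.41 (adjusted p = 0.197; 0.0388 with the block). The cofactor enzyme gene Gch1 differed by -0.34 ± 0.22 and the kinase gene Prkg1 by -0.35 ± 0.30 at 24 h (adjusted p = 0.716 and 0.831).

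Of 7 endothelin genes beside Edn1, 0 passed at 12 h and 1 rose at 24 h. This was Ece1, the protease that makes active endothelin, with 7.81 and 8.10 without and 9.55 and 9.63 with doxycycline at 24 h, a rise of 1.64 ± 0.23 (adjusted p = 0.0224), after a difference of 1.25 ± 0.23 at 12 h (adjusted p = 0.0625; 0.0108 with the block). Mme, a protease that degrades endothelin and other peptides, read 4.80 and 5.06 without and 5.89 and 7.04 with doxycycline at 12 h and 4.50 to 4.99 on the 4 arrays at 24 h (difference at 12 h 1.53 ± 0.35, adjusted p = 0.124; 0.0379 with the block). Apart from the treated arrays at 12 h, all its values lay below the 5.22 limit of the dimmest probe sets. The receptor gene Ednrb differed by -0.54 ± 0.22 at 12 h (adjusted p = 0.501).

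Of 11 coagulation genes beside Thbd, 1 rose at each time and 0 fell. Tfpi, which encodes the inhibitor of the tissue factor pathway, read 6.37 and 6.27 without and 8.32 and 8.52 with doxycycline at 12 h and rose by 2.10 ± 0.31 (adjusted p = 0.034), and by 1.85 ± 0.31 at 24 h (adjusted p = 0.0393). Tissue factor itself, F3, differed by 0.90 ± 0.29 at 12 h (adjusted p = 0.322; 0.026 with the block), and Procr, the receptor that presents protein C, by 0.66 ± 0.19 at 24 h (adjusted p = 0.181). The list median was 0.23 at 12 h and 0.49 at 24 h.

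Of 11 sphingosine 1-phosphate genes beside S1pr1, 0 passed at either time in limma. At each time 1 had an unadjusted p under 0.05, Sgpp1 at 24 h with 0.72 ± 0.21 (adjusted p = 0.181, and 0.0261 with the block). Over both times together 1 rose in limma, against 2.61% of all probe sets. The exporter gene Spns2 differed by -0.32 ± 0.16 and -0.34 ± 0.16 and the receptor gene S1pr5 by 0.30 ± 0.15 and -0.03 ± 0.15 at 12 h and 24 h, none of which passed (adjusted p = 0.661, 0.504, 0.691 and 0.996).

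Of 11 genes beside Sgk1, its substrate gene Ndrg1 rose at 12 h by 1.54 ± 0.21 (adjusted p = 0.0277) and differed by 0.86 ± 0.21 at 24 h (adjusted p = 0.123). It also rose over time without doxycycline, by 1.82 ± 0.21 (adjusted p = 0.0295), opposite to Sgk1. With doxycycline over both times together, 1 of the 11 genes rose and 1 fell in limma, and 2.61% of all probe sets rose. Foxo3, a factor that SGK1 inhibits, differed by -0.59 ± 0.14 at 12 h (adjusted p = 0.142; 0.0531 with the block) and by -0.72 ± 0.14 at 24 h (adjusted p = 0.0612; 0.0217 with the block). Nedd4l, a ligase that SGK1 inhibits, differed by -0.84 ± 0.27 at the earlier time and by -0.27 ± 0.27 at the later (adjusted p = 0.338 and 0.869; 0.0398 and 0.474 with the block). Of 12 other vasoactive genes 0 passed at either time in limma, with 1 at 12 h and 2 at 24 h at an unadjusted p under 0.05, close to the 8.85% and 11.4% of all probe sets. The thromboxane synthase gene Tbxas1 differed by -0.94 ± 0.25 at 12 h (adjusted p = 0.203) and the natriuretic peptide receptor genes Npr1 and Npr2 by 0.46 ± 0.16 and 0.64 ± 0.25 at 24 h (adjusted p = 0.286 and 0.372; 0.106 and 0.0368 with the block).

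Immediate early genes, which rise when cells are handled, were set beside Edn1, Rhob and Sgk1. Of 14 measured, 0 passed with doxycycline at either time in limma, with 1 at 12 h and 2 at 24 h at an unadjusted p under 0.05. Jun differed by 0.92 ± 0.19 at 12 h (adjusted p = 0.101; 0.0354 with the block) and 0.26 ± 0.19 at 24 h. Between 12 h and 24 h with doxycycline 1 passed, Ier3, which rose by 1.82 ± 0.18 (adjusted p = 0.019), opposite to the 3 members. Jun differed by -0.63 ± 0.19 and Egr3 by -0.68 ± 0.28 over that time, in the direction of the members (unadjusted p = 0.0124 and 0.0402, adjusted p = 0.501 and 0.696). The list median over that time was -0.18 without and -0.29 with doxycycline, and the part of cell handling in the members' levels was not tested.

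**Figure D4:**
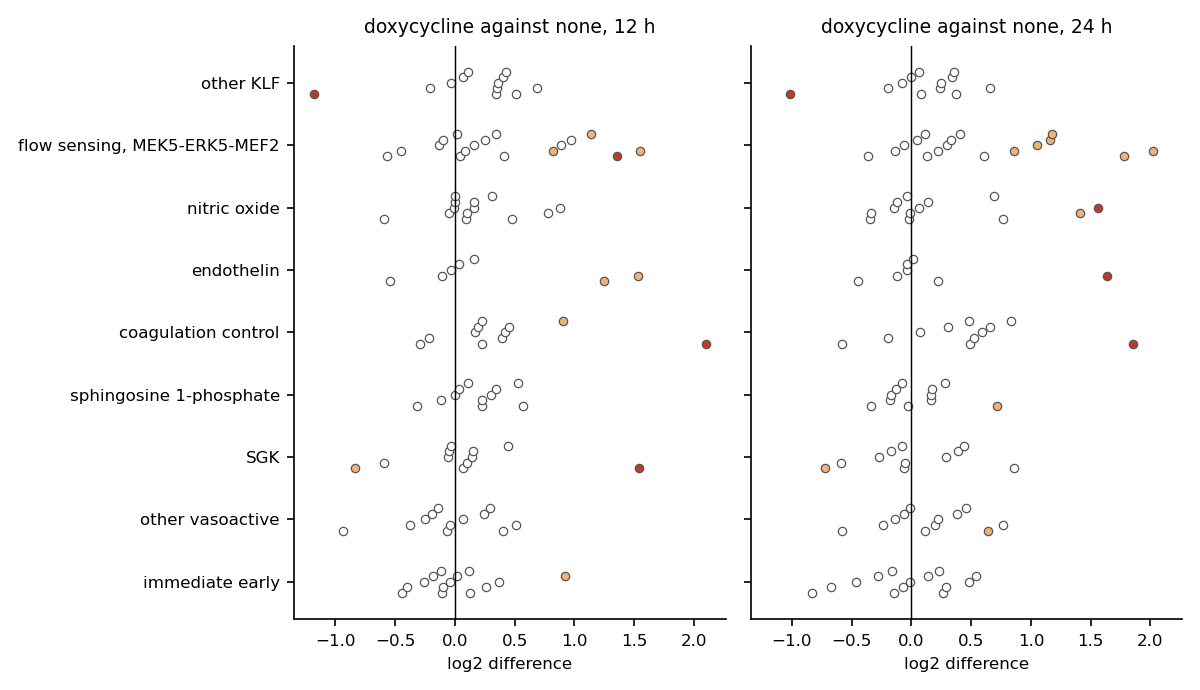
Log2 difference between doxycycline and none at 12 h (left) and 24 h (right) for the measured genes of 9 lists around the members, 1 circle per gene. Red circles passed at an adjusted p under 0.05 in limma and orange circles only with the replicate block; the red circles at 24 h include Ece1 at 1.64, Ddah2 at 1.56 and Tfpi at 1.85.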

How the data were processed

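The authors deposited log2 expression levels for 16348 probe sets on each Affymetrix array, made with RMA in Affymetrix Power Tools per the submitters' processing notes, without versions. RMA subtracts background, brings the arrays to a common distribution and condenses the probes of a set. The deposited values still differed between arrays, with medians of 6.4 to 6.61 and upper quartiles of 8.19 to 8.57. Detection calls were not used, a genome build is not given in the sources used here, and precision is limited by how many arrays there are. Groups and replicate numbers came from the sample titles. Genes were named through the platform annotation, with 14785 probe sets naming 1 symbol.

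Models were fitted to every probe set with limma 3.58.1 in R 4.3.3 (lmFit, eBayes) with 1 mean per group over 8 arrays, which left 4 residual degrees of freedom, or with doxycycline and time as terms for the comparison over both times, which left 5. The Benjamini-Hochberg adjustment ran over all probe sets, with a threshold of 0.05 and no filter. Differences are log2 ± SE. The pipeline was tested on simulated data.

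Replicates carry the same numbers in every group's titles. Arrays of the same number deviated together from their group means (r = 0.298 at the lowest and 0.428 at the highest among pairs of groups). The main fits held no term for the number and so left this pairing out. Fits with the number as a block were an alternative and are given where they change a call.

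The members, lists and tests were chosen with earlier results of these data known, so counts of members are not independent evidence. In each list around the members, the genes named were taken from the 4 with the smallest p for doxycycline at either time and those that passed. The MEK5, ERK5 and MEF2 genes were named outside this rule. A further list is not reported here. The SGK list holds Pdk1, a mitochondrial kinase gene, by its symbol. The alternatives were quantile normalization again, median centring, a trended or robust eBayes, a filter that dropped 33.3% of probe sets as dimmest, a single probe set per gene, array weights, the block, fits restricted to the compared groups, and omission of each array. Promoter sequences came from RefSeq.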

Additional observations from a re-analysis of the deposited data

Results flagged for a closer look

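Rhob differed with doxycycline in opposite directions at the 2 times in every pair of arrays with the same replicate number, by 0.58 and 0.75 at 12 h and by -0.06 and -0.07 at 24 h. The 24 h values are small beside the SE of 0.15. The difference of the effects, -0.73 ± 0.22, did not pass when tested in limma (unadjusted p = 0.0106, adjusted p = 1; 0.592 with the block).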

How the results depend on the processing

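Each result was recomputed under the alternatives, and 819 values kept their direction and side of the threshold, while 41 were no longer past it, 19 passed it and 21 changed sign. Few member results had passed in the main fits, so most of the 819 had not passed there and still did not, which says little about the calls. At 12 h the number of probe sets passing for doxycycline, 151, was 241 after quantile normalization was repeated, 239 without the dimmest 33.3%, 495 with array weights, 467 with the replicate block and 0 with only the groups compared. The number of members passing there, 1, was 2 with quantile normalization, centring, a trend or the dim filter, 5 with weights or the block and 0 with only the groups compared. At 24 h the 235 probe sets became 415, 367, 18, 677 and 126 in the same order, and the 0 members became 1 with quantile normalization or the dim filter and 2 with the block. Over both times the 723 probe sets became 1231 with the block. Between the times without doxycycline the 24 probe sets became 61 with quantile normalization, 44 with a trend, 51 with the dim filter, 0 with weights, 130 with the block and 1 with only the groups compared, and the 1 member became 0 with weights or only those groups. With doxycycline the 30 became 49, 62, 58, 88, 123 and 0 in that order, and the 3 members 0 with only the groups compared.

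Leaving out 1 array gave 7 to 201 probe sets and 0 members at 12 h, 4 to 297 and 0 at 24 h, 377 to 730 and 1 to 2 over both times, 0 to 36 and 0 to 1 between the times without doxycycline, and 0 to 29 and 0 to 2 with it. The values that changed sign had not passed. Klf4 over both times was -0.04 with quantile normalization and -0.02 with centring, and its change over time without doxycycline was 0.01 with quantile normalization. The other sign changes came from leaving out 1 array, where Klf4 ran from -0.42 to 0.31 and Klf2 from -0.16 to 0.09 for doxycycline at 24 h, and Klf4 from -0.11 to 0.18 over both times. The difference of the doxycycline effects ran from -0.51 to 0.22 for Klf4, -0.16 to 0.38 for Thbd and -0.52 to 0.21 for S1pr1. The change over time without doxycycline ran from -0.41 to 0.32 for Klf4, -0.35 to 0.18 for Klf6 and -0.49 to 0.24 for S1pr1, and that with doxycycline from -0.40 to 0.04 for Klf4. The cause was not tested. Fits of only the groups compared had fewer arrays. No member had a further probe set to compare.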
